A study of Rattus norvegicus with 3 samples.

Results

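The osteosarcoma line COS1NR was compared with cultured bone marrow mesenchymal stem cells (MSCs, labelled rMSC) across all rat genes that a whole genome array could measure. RNA of each cell type was hybridized to 1 array, so the comparison held 2 of the 3 arrays of the series, and the remaining array, of the malignant fibrous histiocytoma (MFH) line MFH1NR, served to separate what was particular to COS1NR from what both sarcomas shared. All 3 cell types came from F344 rats, and no treatment in culture is named. Both sarcoma lines arose from tumors induced with a carcinogen abbreviated 4-HAQO in the labels, and the methods describe them as bearing p53 mutations. MSCs were isolated from femur bone marrow by adherence to plastic and were not sorted, and they were kept in more serum than the sarcomas. Each sarcoma is represented by 1 line. Age and sex of the animals are not given in the sources used here.

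Of 41012 probes that were not controls, 40816 kept an unflagged spot on every array, and those with a curated RefSeq name covered 13301 genes. A gene was compared when its brightest probe was well above background, by the scanner software's own call, on at least 1 of the 2 arrays, which held for 9709 genes. Intensities are given as deposited, in arbitrary units that are not scaled between arrays, while every ratio was taken after each array was set to its own 75th percentile. The latter was 774 in COS1NR, 589 in MSCs and 994 in MFH1NR. Where a gene was not well above background on an array, the ratio is a bound and is written as "at least". Where 3 values follow each other without names, they are those of MSCs, COS1NR and MFH1NR, in this order. With 1 array per cell type no difference could be tested, and "higher" or "lower" in a count means at least 2-fold. The spread between spots of the same probe had a median SD between 0.07 and 0.08 in log2, and covers neither cultures nor labeling. COS1NR and MFH1NR lay on a common slide and MSCs on a different one, and in a ratio to MSCs the slide therefore cannot be told apart from the cell type.

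MSCs are adherent stromal cells that can form bone, cartilage and fat. Osteosarcoma is a bone tumor whose cells lay down osteoid, a matrix made mainly of type I collagen, and its lines often keep part of the osteoblast program. Osteoblasts mature from such stromal cells under the transcription factors Runx2 and Sp7, while Pparg and Cebpa direct the same precursors to fat.

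Higher in COS1NR than in MSCs were 2006 of 9709 genes (20.7%), and lower were 1941 (20.0%). The median log2 ratio over all genes was 0.11. Of the genes higher in COS1NR, 1078 (53.7%) were also at least 2-fold higher in MFH1NR than in MSCs, and of the genes lower, 1294 (66.7%) were also lower there. Opposite changes of at least 2-fold were found at 224 genes. Both sarcomas were set against the same MSC array, so a gene that differs in MSCs alone counts for both. Genes that separated COS1NR from both other cell types were therefore counted directly. Among 9122 genes that could be compared, COS1NR was higher than both at 603 (6.61%) and lower than both at 560 (6.14%). These shares are the background against which each gene group is given below. In MFH1NR, 1901 of 9822 genes (19.4%) were higher than in MSCs and 2122 (21.6%) lower.

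**Figure D1:**
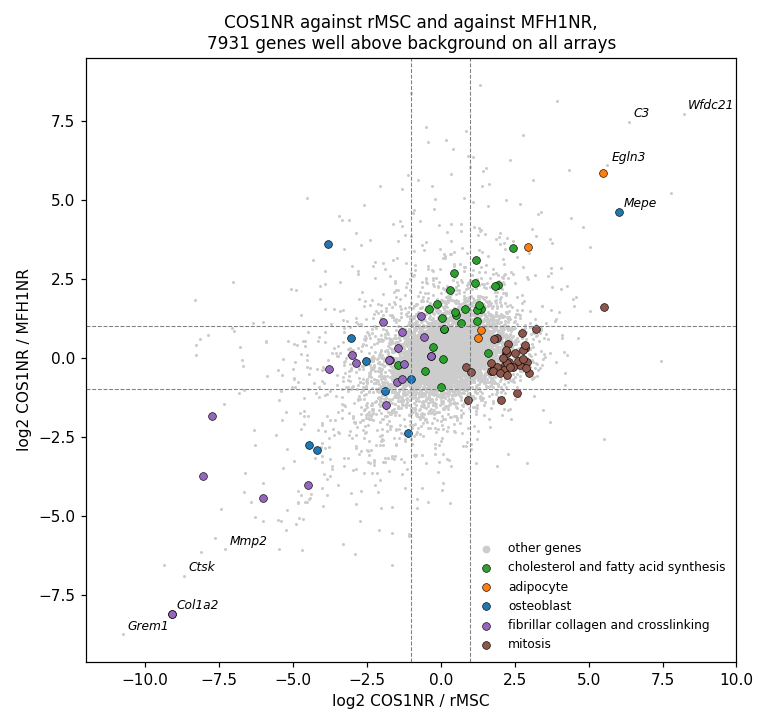
Log2 ratio of COS1NR to MSCs (horizontal axis) against its log2 ratio to MFH1NR (vertical axis) for the 7931 genes well above background on all 3 arrays, with members of 5 gene lists in color and dashed lines at 2-fold. Both axes share the COS1NR array, which by itself spreads points along the diagonal. Cholesterol enzymes lie in the upper part near or right of 0, and mitosis genes lie mostly right of the 2-fold line and near 0 on the vertical axis.

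The genes highest in COS1NR encoded secreted acute-phase and mineral-related proteins, a hypoxia-linked enzyme and lipid-handling proteins. Wfdc21, a small secreted whey acidic protein, had an intensity of 30661 in COS1NR, 78.8 in MSCs and 186 in MFH1NR. COS1NR was thus far above both other arrays, 296-fold over MSCs and 212-fold over MFH1NR. C3, the central component of complement, measured 12240 in COS1NR, 114 in MSCs and 89.2 in MFH1NR, a ratio of 82.0 to MSCs and 176 to MFH1NR. Lcn2, an iron-siderophore-binding acute-phase protein, went from 33.9 in MSCs to 8659 in COS1NR and was not well above background in MFH1NR, with a ratio of 194 to MSCs. Orm1, another acute-phase plasma protein, was well above background only in COS1NR, at 1212, which put it at least 51.6-fold over MSCs. Egln3, a prolyl hydroxylase of the hypoxia pathway, measured 25679.9 in COS1NR, 394 in MSCs and 484 in MFH1NR and was 49.6-fold over MSCs.

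Among other genes chosen by the same ranking were Mgst1, a membrane-bound glutathione transferase, at 712, 26075 and 1910 in MSCs, COS1NR and MFH1NR, and Rbp4, the plasma carrier of retinol, at 3042, 61505 and 285. Rbp4 was 15.4-fold higher in COS1NR than in MSCs and lower in MFH1NR. The LIM homeobox factor Lhx2, the synaptic scaffold gene Dlgap1, the bifunctional enzyme of fructose 2,6-bisphosphate Pfkfb1 and the sulfurtransferase Tst were between 3.62 and 4.42 in log2 above the nearer of the other arrays. Not every large increase belonged to COS1NR. Rec114, which acts in meiotic recombination, measured 18757 in COS1NR, 81.6 in MSCs and 25709 in MFH1NR, and the homeobox gene Rhox5 was higher still in MFH1NR, at 54333 against 7054 in COS1NR and 117 in MSCs. Bex2 was particular to COS1NR at 3187, against 23.3 in MSCs.

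**Figure D2:**
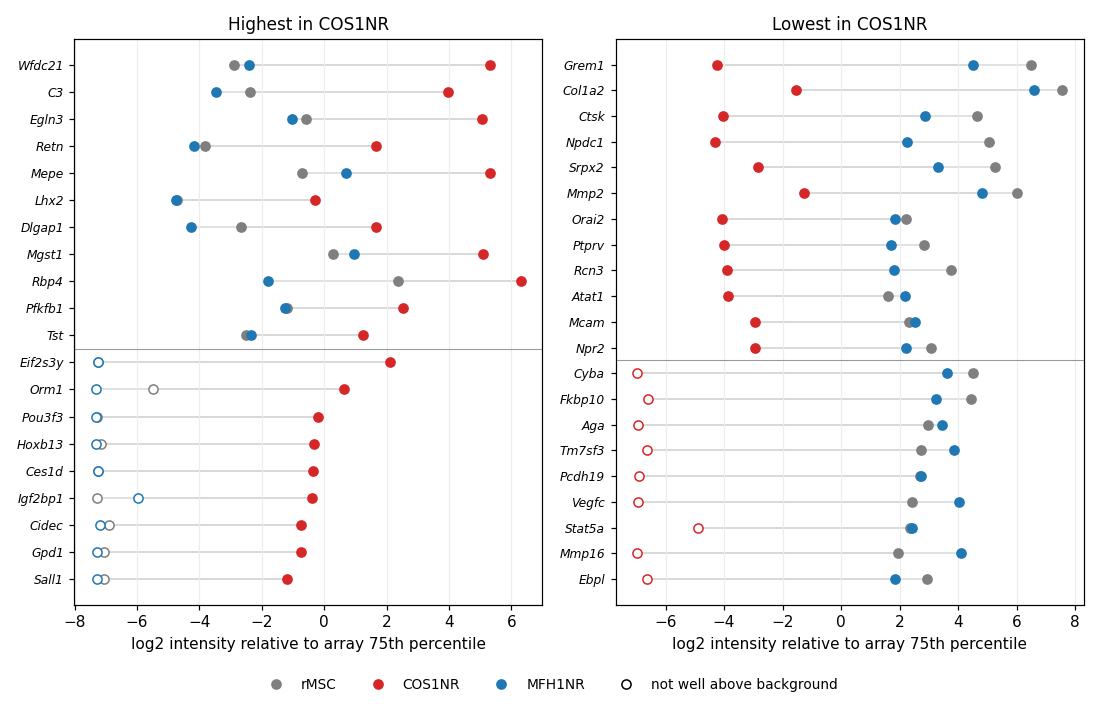
Log2 intensity relative to the array's 75th percentile (horizontal axis) of single genes on the 3 arrays, with open circles where the probe was not well above background. Upper rows give genes among the 12 highest and the 12 lowest in COS1NR against the nearer of the other arrays. Lower rows give genes among the 10 brightest well above background only in COS1NR and the 10 well above background in both other cell types but not in COS1NR. The COS1NR point stands apart in every row, as the choice of the genes requires.

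Fat cell genes were higher in COS1NR. Of 11 genes of the adipocyte list, 9 were higher than in MSCs and 1 was lower, with a median log2 ratio of 2.84 against 0.11 for all genes, and 7 of 10 were higher than in both other arrays. Over the members well above background on all arrays, 4 were higher than in MSCs and 2 higher than both. Pparg, the nuclear receptor that directs fat cell formation, had an intensity of 174 in MSCs and 1638 in COS1NR and was not well above background in MFH1NR. Its level was 7.15-fold over MSCs and at least 70.0-fold over MFH1NR. Fabp4, a fatty acid carrier under its control, measured 307 in MSCs and 21786 in COS1NR and was not well above background in MFH1NR, a ratio of 54.1 to MSCs. The hormone gene Retn (resistin) measured 41.5, 2446 and 55.0 in MSCs, COS1NR and MFH1NR. Lpl, which releases fatty acids from lipoproteins, was 9.53-fold higher in COS1NR than in MSCs, and the fatty acid receptor Cd36 4.94-fold. Dgat2, which makes triglycerides, measured 1167, 11885 and 1342, and Cidec, a lipid droplet protein, was well above background only in COS1NR. Gpd1, which supplies glycerol phosphate, is not on the list and was named because it was detected in COS1NR only, at 463. Cebpa, the partner of Pparg, was 2.37-fold over MSCs and 1.55-fold over MFH1NR. Its ratio to MSCs was 1.77 with normexp and 1.96 with spike-in scaling. The mature fat cell hormone Adipoq was not well above background in COS1NR (13.2), and the adipsin gene Cfd was 2.36-fold lower than in MSCs, or 1.80-fold without scaling. In MFH1NR, 1 of 11 adipocyte genes was higher than in MSCs and 5 were lower.

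Enzymes of cholesterol synthesis were also higher. This pathway turns acetyl-CoA into mevalonate, isoprenoids and sterols, and its genes respond together to sterol-regulated transcription factors. Of 29 genes of the cholesterol and fatty acid list, 10 were above MSCs and 3 below in COS1NR (median log2 ratio 0.47), and 9 of 28 (32.1%) were higher than in both other arrays, with none lower than both. All 9 act in the sterol and isoprenoid branch. Sqle, which epoxidizes squalene, had an intensity of 13454 in COS1NR, 1899 in MSCs and 1549 in MFH1NR, a ratio of 5.39 to MSCs and 11.2 to MFH1NR. Dhcr7, the last enzyme of cholesterol synthesis, measured 768, 3889 and 1009, and Hsd17b7, which reduces a sterol ketone, 277, 1286 and 343. Fdft1, Fdps, Idi1 and Msmo1 were between 2.22- and 2.57-fold over MSCs. Not all steps were 2-fold apart. Hmgcs1 was 1.25-fold over MSCs and Cyp51 and Lss were 0.92- and 0.76-fold. Genes of fatty acid synthesis had mixed values. The elongase gene Elovl6 was 3.03-fold over MSCs and 1.11-fold over MFH1NR. Fasn was at 1.01-fold of MSCs, the desaturase Scd was 9.47-fold lower than in MSCs, and Scd2 was 2.75-fold lower. Fads2 was not well above background in COS1NR. With the arrays scaled by their spike-in controls, the number of list members higher than both went from 9 to 3.

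Promoter sequences of 4 of these genes are shown, because the genes were higher together. The table of promoters held 5 of the 9, and the fifth, Dhcr7, had no CCAAT. Each runs from 250 bases before to 50 bases after the start of the gene on its own strand, from RefSeq on GRCr8. Capitals mark CCAAT, the box bound by the factor NF-Y, on either strand (CCAAT or ATTGG).
Fdps (chr2:176804767-176805066, minus strand): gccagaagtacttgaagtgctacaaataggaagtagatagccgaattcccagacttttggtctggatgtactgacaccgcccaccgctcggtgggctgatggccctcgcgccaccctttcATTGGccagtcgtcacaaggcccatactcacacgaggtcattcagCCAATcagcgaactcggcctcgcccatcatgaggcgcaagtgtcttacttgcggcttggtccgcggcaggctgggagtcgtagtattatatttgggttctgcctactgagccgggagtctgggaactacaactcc
Idi1 (chr17:66547475-66547774, minus strand): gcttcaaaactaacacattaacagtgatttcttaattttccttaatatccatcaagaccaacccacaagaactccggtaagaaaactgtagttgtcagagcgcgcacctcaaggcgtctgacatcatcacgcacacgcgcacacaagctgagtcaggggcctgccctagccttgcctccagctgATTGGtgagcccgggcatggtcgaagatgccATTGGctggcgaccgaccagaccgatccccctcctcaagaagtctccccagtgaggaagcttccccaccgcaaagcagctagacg
Hsd17b7 (chr13:84722705-84723004, minus strand): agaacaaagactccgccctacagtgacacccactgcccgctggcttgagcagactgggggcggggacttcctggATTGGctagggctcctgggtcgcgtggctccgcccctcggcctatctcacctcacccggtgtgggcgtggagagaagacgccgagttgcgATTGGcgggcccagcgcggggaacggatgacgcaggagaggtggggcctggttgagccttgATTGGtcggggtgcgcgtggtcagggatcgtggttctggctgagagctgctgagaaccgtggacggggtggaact
Msmo1 (chr16:29746863-29747162, plus strand): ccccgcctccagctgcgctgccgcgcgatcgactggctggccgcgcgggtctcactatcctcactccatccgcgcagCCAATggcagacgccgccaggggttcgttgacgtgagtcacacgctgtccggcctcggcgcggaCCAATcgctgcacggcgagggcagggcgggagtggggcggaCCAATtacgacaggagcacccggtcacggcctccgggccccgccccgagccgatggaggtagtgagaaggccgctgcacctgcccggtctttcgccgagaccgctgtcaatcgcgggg
The table held 21 promoters of the list. CCAAT was present in 16 (76.2%), against 37.7% of all 27457 promoters. It was found in 4 of 5 promoters of genes higher than both and in 11 of 15 of the other list members measured. The core of a sterol regulatory element, searched as TCACNCCAC on both strands, was in none of the 21 windows and in 1.13% of all promoters. No other motif was searched, and no overlap of the 2 motifs could arise in these windows. A match describes letters in a window and not a bound site.

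**Figure D3:**
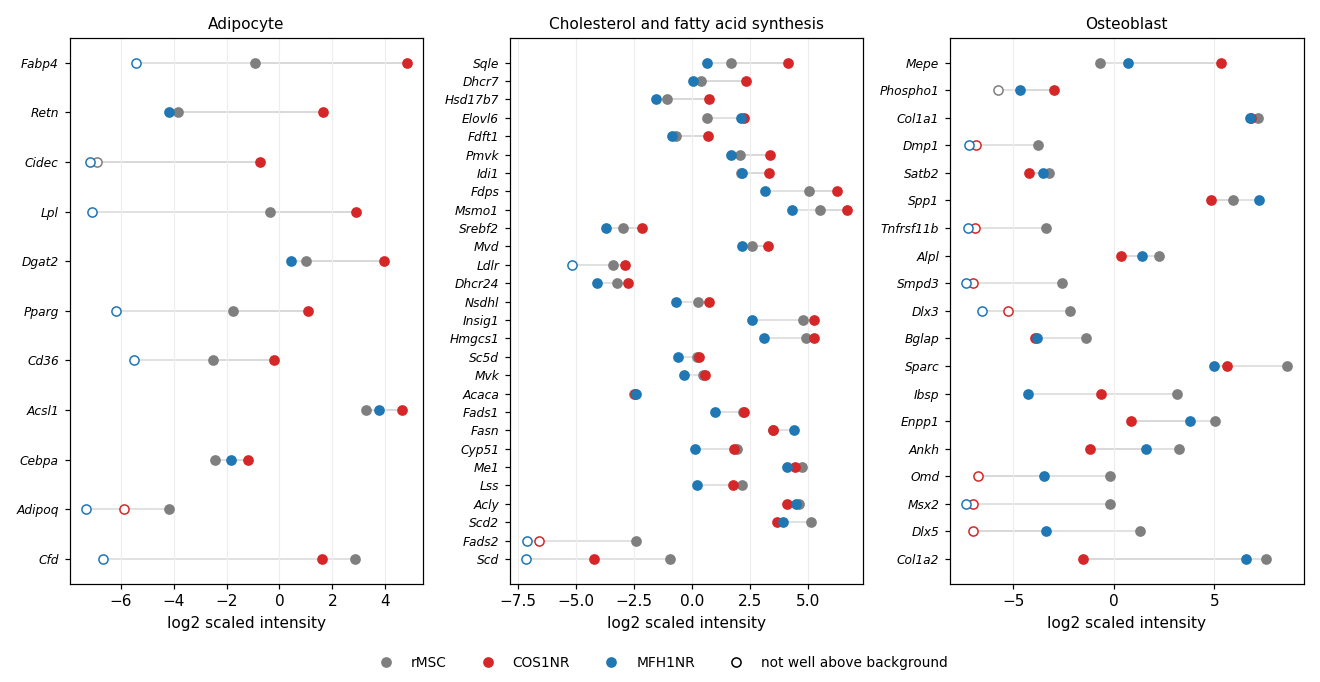
Log2 intensity relative to the array's 75th percentile (horizontal axes) of compared members of the adipocyte, cholesterol and fatty acid synthesis and osteoblast lists, ordered by the ratio of COS1NR to MSCs. Open circles were not well above background. COS1NR lies right of the other arrays for 9 adipocyte genes, 7 of them by at least 2-fold, and for the sterol enzymes at the top, and left of MSCs for most osteoblast genes.

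Osteoblast genes were mostly lower. In COS1NR, 2 of 19 were above MSCs and 15 below (median log2 ratio -2.52). Against both other arrays, 2 of 14 were higher and 7 (50%) lower. The exception was Mepe, a matrix phosphoglycoprotein of osteocytes, with an intensity of 31057 in COS1NR, 362 in MSCs and 1617 in MFH1NR, or 65.4-fold over MSCs. Phospho1, a phosphatase that starts mineral formation, was higher at 98.2, at least 4.18-fold over MSCs. After a normexp background correction its log2 ratio to MSCs was 0.83, under 2-fold. The alkaline phosphatase gene Alpl, which frees phosphate for mineral, measured 2780, 986 and 2617 in MSCs, COS1NR and MFH1NR and was 3.70-fold lower than in MSCs. Regulators of pyrophosphate, a mineral inhibitor, were lower too. Enpp1, which makes it, measured 19165, 1393 and 13652, and Ankh, which exports it, 5654, 341 and 2975. Spp1 (osteopontin) was 2.13-fold below MSCs and lower still against MFH1NR. Its log2 ratio to MSCs without scaling was -0.70, under 2-fold. Among regulators, Dlx5 lay at least 64.5-fold below MSCs. Sp7, the osteoblast master factor, was not well above background in COS1NR (6.34) or in MSCs (7.27) but was in MFH1NR (108). Runx2 had no named probe here. Bone sialoprotein (Ibsp) and osteocalcin (Bglap) were lower than in MSCs, by 14.1-fold and 5.80-fold. Ibsp was 12.2-fold higher in COS1NR than in MFH1NR (491 against 51.7), and Bglap was at 0.93-fold of MFH1NR. Of 20 osteoblast genes compared in MFH1NR, 12 were below MSCs and 3 above. In the line labelled osteosarcoma, Mepe and Phospho1 were thus the list members at least 2-fold above MSCs.

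Other genes at the low end of the ranking belonged to several groups. Npdc1, a regulator of neural cell proliferation, measured 19524 in MSCs and 4688 in MFH1NR but 38.9 in COS1NR. The secreted ligand Srpx2, the reticulum calcium-binding protein Rcn3, the calcium channel subunit Orai2, the phosphatase Ptprv, the tubulin acetyltransferase Atat1 and the natriuretic peptide receptor Npr2 had log2 differences between -5.18 and -6.14 from the nearer of the other arrays. Tnn, Apoe, C1qtnf5 and Cspg4 were among the largest decreases from MSCs as well, with log2 ratios between -8.15 and -9.02, but all of them were lower in MFH1NR too.

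Of the type I collagen chains, the alpha2 chain was lower by both probes, and the probes of the alpha1 chain disagreed. The alpha2 chain gene Col1a2 had an intensity of 268 in COS1NR, 110949 in MSCs and 94925 in MFH1NR, and COS1NR was 544-fold below MSCs. Its second probe measured 169669, 36.7 and 12125. Both probes placed COS1NR far below the other arrays. For the alpha1 chain gene Col1a1, the brightest probe measured 83826, 87747 and 108611, a ratio of 0.80 to MSCs, while a second probe measured 257063, 26104 and 42449, 12.9-fold below MSCs and 1.27-fold below MFH1NR. Col3a1 was 265-fold lower in COS1NR than in MSCs and 13.5-fold lower than in MFH1NR. Of 21 genes of the fibrillar collagen and crosslinking list, 18 were lower than in MSCs and none higher, and 6 (28.6%) were lower than both. Beside Col1a2 and Col3a1 these 6 were Col5a3, the lysyl oxidase-like enzymes Loxl1 and Loxl3, and Pcolce, which enhances procollagen processing. In MFH1NR, 15 of 21 members of the list were lower than in MSCs. Fkbp10, a procollagen chaperone of the endoplasmic reticulum, measured 12676 in MSCs and 9433 in MFH1NR and was not well above background in COS1NR (8.02), at least 567-fold below MSCs.

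Matrix-degrading enzymes followed the same direction. Of 18 metalloproteinase and inhibitor genes, 13 were lower than in MSCs and 1 higher, and 7 of 16 were lower than both. In MFH1NR, 7 of 18 were lower and 4 higher than in MSCs. Mmp2 (gelatinase A) measured 38198, 323 and 27717 in MSCs, COS1NR and MFH1NR and was 155-fold below MSCs. Mmp14, the membrane protease that activates it, measured 41332, 1208 and 55144. Mmp16 gave different answers by probe. Its brighter probe was at least 102-fold below MSCs, and the dimmer one was 1.88-fold below. Ctsk, the collagen-cleaving cathepsin of osteoclasts and fibroblasts, measured 47.0 in COS1NR, 14774 in MSCs and 7209 in MFH1NR. Of 29 proteoglycan and matricellular genes, 24 were lower and 1 higher than in MSCs, and 9 of 22 were lower than both. In MFH1NR, 22 of 29 were lower than in MSCs. Among them, Ccn2 (CTGF) measured 25434, 390 and 11842.

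Among genes well above background on both arrays, the largest decrease was that of Grem1, a secreted antagonist of bone morphogenetic proteins (BMPs). It measured 40.6 in COS1NR, 53526 in MSCs and 22652 in MFH1NR, a decrease of 1732-fold from MSCs and 434-fold from MFH1NR. A second probe was not well above background in COS1NR and pointed the same way. Of 43 TGF-beta and BMP genes, 7 were higher and 21 lower than in MSCs, and of 36, 4 were higher and 12 (33.3%) lower than both. The ligand Bmp6 was higher, at 26.6 in MSCs and 706 in COS1NR, and so was follistatin (Fst), an activin antagonist, at 1398, 12941 and 4797. The ligands Bmp2 and Tgfb1, the pseudoreceptor Bambi and the inhibitory Smad6 and Smad7 were lower than both. For Bmp2 the arrays read 460 in COS1NR, 734 in MSCs and 28448 in MFH1NR, and without scaling its log2 ratio to MSCs was -0.67, under 2-fold. Secreted Wnt antagonists diverged. Dkk3 and Sfrp4 were not well above background in COS1NR and were at least 314-fold and 255-fold lower than in MSCs, whereas all 3 probes of Sfrp2 were well above background in COS1NR only. Of 28 Wnt genes, 1 was higher and 16 lower than in MSCs, and 6 of 25 were lower than both, or 11 with spike-in scaling.

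Against MSCs, growth factor genes were more often lower than higher. Of 13 insulin-like growth factor genes, 3 were above MSCs and 6 below in COS1NR. Their median log2 ratio was -0.80, or -1.56 with the mean of all probes and -1.33 with normexp. Of 33 genes of the PDGF, FGF, HGF and EGF list, 3 were above and 15 below, with a median of -0.80. Against both other arrays, 3 of 12 and 3 of 26 members of these lists were higher, and 3 and 4 lower. In MFH1NR, 8 of 12 and 18 of 32 were below MSCs, and 0 and 3 above. Igf2bp1, an RNA-binding protein of fetal tissue, was well above background only in COS1NR, at 584, and its target Igf2 measured 423, 1585 and 134 in MSCs, COS1NR and MFH1NR. The receptor Igf2r, which clears this ligand, was lower, at 22978, 306 and 4923. The epidermal growth factor receptor ligands Areg and Tgfa measured 742 and 2109 in MSCs, 2198 and 7282 in COS1NR, and were not well above background in MFH1NR. Their ratios to MSCs were 2.26 and 2.63, and that of Areg was 1.87 with spike-in scaling. In the VEGF and angiopoietin list, 3 of 15 genes were above MSCs and 9 below (median log2 ratio -1.58), and of 13, 3 were higher than both and 3 lower than both. In MFH1NR, 11 of 14 were below MSCs. Angpt1, a ligand that stabilizes vessels, measured 269, 4817 and 1304, while the lymphatic growth factor Vegfc measured 3187 and 16071 in MSCs and MFH1NR and was not well above background in COS1NR (6.23).

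Inflammatory genes differed in both directions. Of 29 interleukin and receptor genes, 5 were higher and 13 lower than in MSCs, and the same 5 of 25 (20%) were higher than both. These were Il6, its receptor Il6r, Il1rap, Lifr and Il13ra2. Another 3 of 25 (12%) were lower than both. These were Il18, 21.4-fold below MSCs, the receptor gene Il11ra1, 7.94-fold below, and Il11, at least 4.22-fold below. With the normexp correction, Il6r and Lifr had log2 ratios to MSCs of 0.92 and 0.74. Il6, the main inducer of acute-phase genes in liver, measured 1855 in COS1NR, 522 in MSCs and 39.5 in MFH1NR, a ratio of 2.70 to MSCs. Il13ra2, a decoy receptor, measured 58.9 in MSCs and 1398 in COS1NR. Of 19 complement genes, 5 were higher and 10 lower than in MSCs. C3, C1s and Cfi were higher than both, and 2 members were lower than both. The list had a median log2 ratio to MSCs of -1.24, which turned to 0.0334 over the 12 genes well above background on all arrays. Of 27 chemokine genes, 4 were higher and 20 lower than in MSCs. The neutrophil attractant Cxcl1 was high on every array, at 47648, 164118 and 42101. For Ccl22, the brighter probe was 6.73-fold above MSCs and the other was 1.86-fold below.

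Patterning factors were among the genes detected in COS1NR alone. Hox and other homeobox factors mark the position and lineage from which a mesenchymal cell derives. Of 26 other developmental factors, 10 were higher and 9 lower than in MSCs, and 8 of 24 (33.3%) were higher than both. Some of these 8 could be compared only because they were detected in COS1NR. Among the 13 factors well above background on all arrays, 3 were higher and 4 lower than in MSCs and 1 was higher than both. Alx1, a craniofacial homeobox factor, measured 2808 in COS1NR and 84.3 in MFH1NR and was not well above background in MSCs, where it was at least 119-fold lower. Gata4, Gata6, Dlx4 and Pax3 were well above background in COS1NR only, at 277, 170, 158 and 74.6. For the dim Pax3, the normexp correction gave a log2 ratio of 0.59 to MSCs. Pou3f3 (673) and Sall1 (335) were also well above background in COS1NR only and were named by brightness, as was the carboxylesterase Ces1d (606). Hox genes were 6 of 7 higher than in MSCs in COS1NR, and also 6 of 7 in MFH1NR. Over the 4 Hox genes well above background on all arrays, 3 were higher than in MSCs and 1 higher than both. Hoxa7, Hoxb13 and Hoxd13 were higher than both, of which Hoxb13 and Hoxd13 could be compared only because COS1NR detected them, although Hoxa7 had a log2 difference of 0.73 from the nearer array with spike-in scaling. Hoxb13, a posterior Hox gene, was well above background only in COS1NR, at 621. Snai2, a mesenchymal transition factor, measured 152, 30.5 and 1424, lowest in COS1NR.

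Genes by which MSCs are usually recognized, for surface proteins and the transcription factor Prrx1, were mostly lower. Of 16, 12 were lower and none higher than in MSCs, and 7 of 14 (50%), Prrx1 among them, were lower than both. In MFH1NR, 12 of 16 were also lower than in MSCs. Thy1 (CD90) was not well above background in COS1NR (6.29), against 2632 in MFH1NR. Mcam (CD146), a marker of perivascular stroma, measured 2910, 101 and 5672. The platelet-derived growth factor receptors Pdgfra and Pdgfrb measured 7621 and 31529.8 in MSCs and 353 and 2374 in COS1NR. Icam1, an adhesion molecule, was 47.2-fold below MSCs. Other members were less than 2-fold apart, such as Itgb1 and Cd9 at 0.62- and 0.67-fold of MSCs. The smooth muscle list gave 11 of 13 lower than in MSCs and 4 of 9 lower than both. Lower in MFH1NR than in MSCs were 10 of 13. Tagln measured 78247 in MSCs and 136 in MFH1NR and was not well above background in COS1NR. The number of smooth muscle genes lower than both lay between 2 with the mean of all probes and 7 with spike-in scaling.

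Part of the lower genes were markers of blood cells. The MSC culture held macrophage and osteoclast transcripts, among them Lyz2 (32304), C1qa (5450), Tyrobp (11921) and Acp5 (24581). Neither Lyz2 nor C1qa was well above background in COS1NR. Of 17 macrophage genes, 15 were lower and none higher than in MSCs, and none was lower than on both other arrays. Their summed scaled signal was 184 in COS1NR, 319 in MSCs and 98.4 in MFH1NR, and 17 members were well above background in MSCs, 10 in COS1NR and 9 in MFH1NR. Most of the remainder in COS1NR came from Lgals3 (106783) and Gpnmb (28014), which stromal cells also express. Of 16 pan-leukocyte genes, 14 were lower and only Fgr was higher, with sums of 80.6, 12.7 and 1.52. The part of these cells in the other lower genes was not tested, and fewer cells of a type and less RNA per cell cannot be told apart. In MFH1NR, where Lyz2 and C1qa were not well above background either, Grem1, Col1a2, Mmp2 and Ctsk had intensities between 7209 and 94925. These genes were chosen as lowest in COS1NR against the nearer other array, which requires higher values in MFH1NR.

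Genes of cell division were higher in COS1NR but not particular to it. Against MSCs, 35 of 37 replication genes were higher in COS1NR and 32 of 37 in MFH1NR. These had medians of 2.01 and 2.12 in log2, and none was higher in COS1NR than in both. Of 38 mitosis genes, 36 were higher in COS1NR and all 38 in MFH1NR, and only Psrc1, which acts on spindle microtubules, was higher in COS1NR than in both. With spike-in scaling, Psrc1 was 1.77-fold from the nearer array. Of 33 DNA repair genes, 19 were higher in each sarcoma. Cyclins differed. Ccnd1 (cyclin D1) measured 6085, 19999 and 11326 in MSCs, COS1NR and MFH1NR, whereas Ccnd2 was not well above background in COS1NR and at least 182-fold below MSCs. None of 21 p53 target genes was higher than in MSCs, and 7 were lower.

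**Figure D4:**
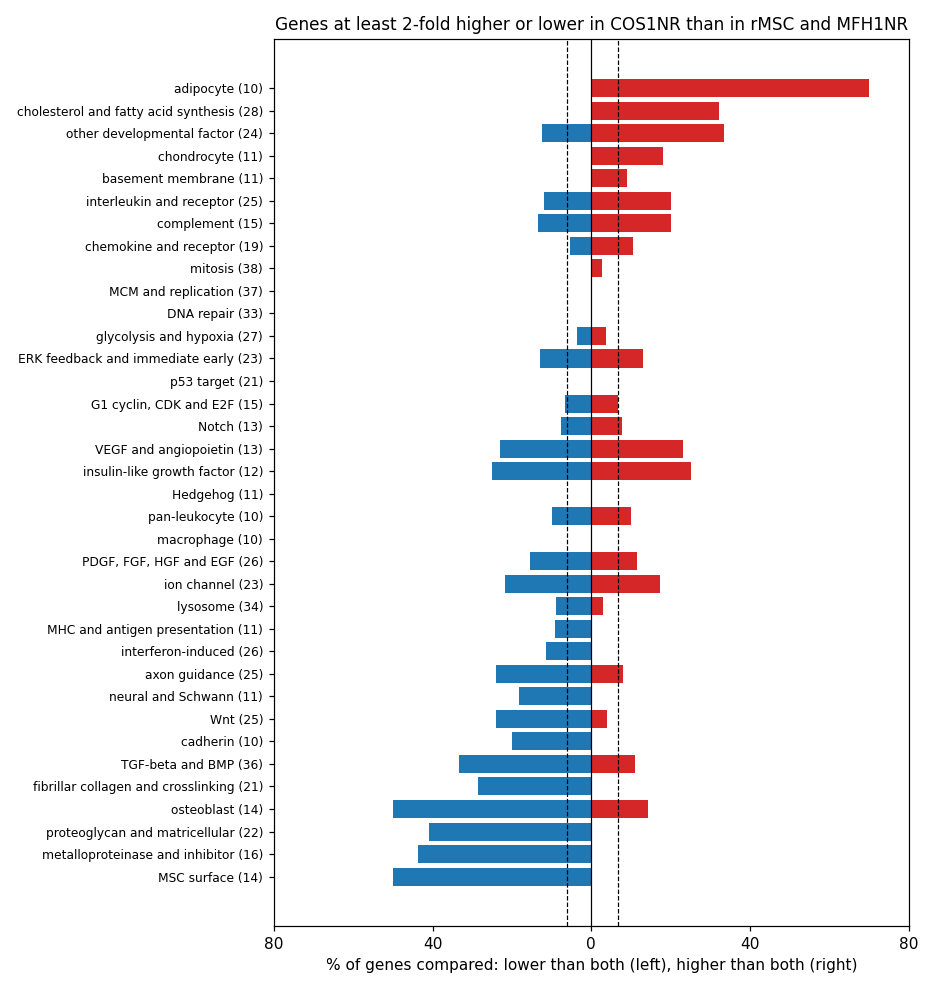
Share of the genes compared in each gene list (number in brackets, lists of 10 genes or more) that were at least 2-fold higher (right) or lower (left) in COS1NR than in both MSCs and MFH1NR, in percent. Dashed lines give the shares over all genes, 6.61% and 6.14%. The adipocyte list reaches furthest right, and MSC surface and osteoblast lists reach furthest left.

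Some genes of MSCs and MFH1NR were below detection in COS1NR. Such genes numbered 382, and 187 were well above background in COS1NR only, against 7931 on all 3 arrays. Genes missing in MFH1NR only numbered 372, and those missing in MSCs only 250. Detected in a single cell type were also 300 genes in MFH1NR and 587 in MSCs. Cyba, a subunit of the phagocyte oxidase, measured 13537 and 12148 in MSCs and MFH1NR and 6.16 in COS1NR. Aga (lysosomal aspartylglucosaminidase), Tm7sf3, Pcdh19 and the transcription factor Stat5a were at least 134-fold lower than in MSCs. In the other direction, the Y-linked genes Eif2s3y (3319) and Ddx3y (106) were well above background in COS1NR and on neither other array. Ddx3y had a log2 ratio of 0.91 to MSCs with the normexp correction.

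Neighboring genes were examined in runs of 11 compared genes, in the gene order of GRCr8, by the median log2 difference of COS1NR from the nearer of the other arrays. The highest run reached from Atad2 to Trib1 with a median of 1.22, and 6 of its 11 genes were higher than both, among them Atad2, Rnf139, Ndufb9 and Sqle. The number depended on the scaling. Without scaling 4 of the 11 were higher than both, and with spike-in scaling 1, Sqle, was, with a median of 0.48 over the run. Myc, the next gene compared, was not part of it. It measured 6159, 3772 and 4337. The second run reached from Hjv to Acp6 with a median of 1.18 and 8 of 11 genes higher than both, or 4 with normexp and 2 with spike-in scaling. The order of the 2 runs also depended on the scaling. Without scaling, the median was 1.01 for the run at Hjv and 0.91 for that at Atad2. The run at Hjv was likewise the higher with median scaling, quantile normalization and spike-in scaling. The lowest run began at Akr1c12l1 with a median of -1.28 and held 7 aldo-keto reductase genes, whose near-identical copies a probe may not tell apart. Akr1c14 measured 2206 in MSCs and 550 in MFH1NR and was not well above background in COS1NR. For Akr1c12l1, Akr1c13, Akr1c19, Akr1c12 and Akr1c3, MFH1NR was above MSCs, by 1.80 to 3.66 in log2. Akr1c15 was lower in both sarcomas than in MSCs, and higher in COS1NR (181) than in MFH1NR (44.1). With runs of 21 genes, the lowest median was -0.62 and the highest 1.01, the latter in a run from Mrps21 to Acp6 that shared no gene with the run at Atad2. The runs are extremes of many and were not tested.

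**Figure D5:**
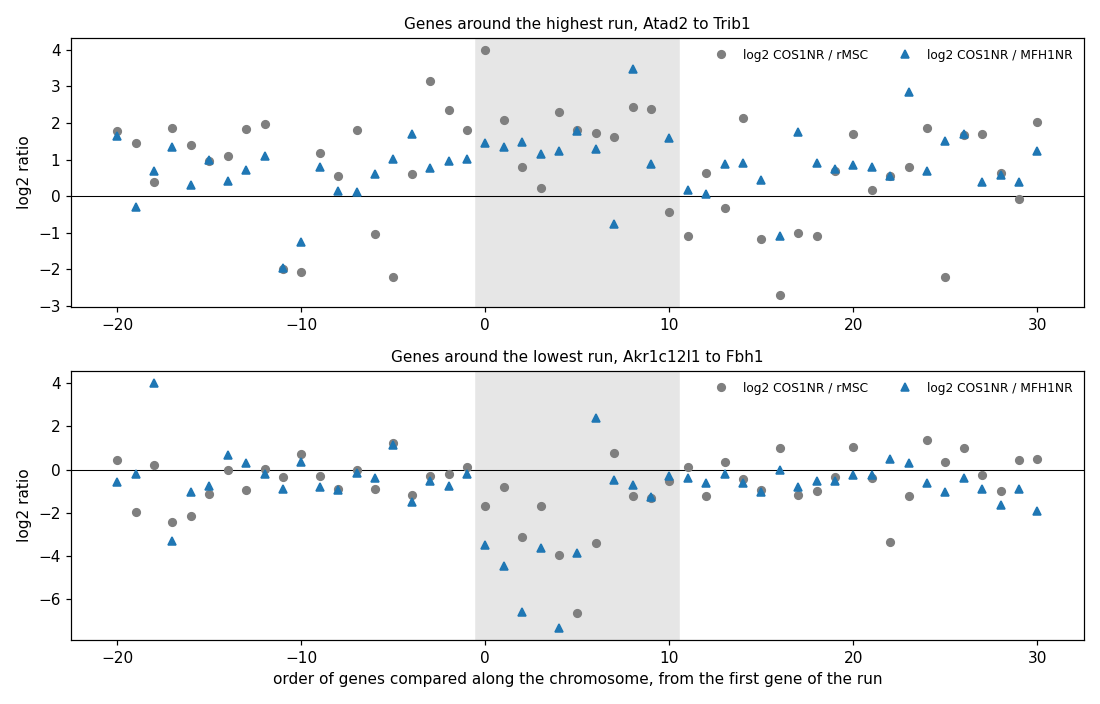
Log2 ratios of COS1NR to MSCs (circles) and to MFH1NR (triangles) for genes in their order along the chromosome, around the highest and the lowest run of 11 genes (shaded). Most points of the shaded run from Atad2 lie above 0, whereas Myc, the first gene to its right, does not in the ratio to MSCs, and most points of the Akr1c genes lie below 0 in the lower panel.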

How the data were processed

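RNA of COS1NR, MFH1NR and MSCs was labeled with Cy3 and hybridized to 1 whole rat genome array of Agilent per cell type. The methods name RNeasy and Quick Amp kits, and the labels a FastTrack mRNA kit with a One-Color Low RNA Input kit, for isolation and labeling. The authors deposited the Feature Extraction output (version 9.1 per the labels, 10.5.1.1 per the file headers), whose processed intensity is background-subtracted and detrended but not scaled between arrays. For each of the 3 arrays, the deposited series table held the same intensities as that array's own file, within a relative tolerance of 1e-06.

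Control spots and spots flagged as outliers (187 to 217 per array) were left out, spots of a probe were averaged in log2, and each array was centered on its 75th percentile. Between 56.6% and 59.7% of spots were well above background, and none was saturated. The number of arrays limits the precision. Each gene was read from the probe with the highest mean log2 intensity, named through RefSeq accessions with a gene table of GRCr8; 2827 genes had several probes. Since the array design was annotated on another build, only promoters have coordinates. Among 1983 genes, a second probe moved the log2 ratio by 0.28 in the median, and of 617 genes called with 2 probes, 434 (70.3%) were also 2-fold apart by the second.

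Bounds set the brighter gene against the dim probe's scaled intensity or the lowest one well above background on that array, whichever was higher. Named genes were the 10 largest increases and decreases from MSCs, the 12 highest and 12 lowest against the nearer other array, the 10 leading genes detected in COS1NR only or missing there only, list members and genes of the runs. Some genes under these rules are not reported here. The comparison, the 50 gene lists and these rules were chosen with earlier results of these data known, and the motifs after the counts were seen. No group comparison had replicates, so no p-value was computed. Alternatives were other scalings, filters, probes, run lengths and a 3-fold threshold. Normexp with an offset of 50 was run on the median spot intensity, because the deposited columns used here hold no mean signal; this and scaling by 7 spike-in probes were added after the data were seen. The counting step was tested on simulated data of 13301 genes, where 200 of 200 changed genes were recovered and 153 others called. The planted changes were well beyond 2-fold and were put into brighter genes only. The check therefore cannot judge calls near 2-fold or of dim genes. Normexp used limma 3.58.1 in R 4.3.3, figures matplotlib 3.10.9, and all else pandas 2.3.3 and numpy 2.4.6 in Python 3.11.15.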

Additional observations from a re-analysis of the deposited data

Results flagged for a closer look

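The 15 genes below were at least 2-fold apart from MSCs in opposite directions in the 2 sarcomas, on 1 array each, so the difference was not tested. Both ratios share the MSC array. Higher in COS1NR and lower in MFH1NR were Rbp4 (log2 ratio to MSCs in COS1NR 3.94), Angptl4 (1.27), Sqle (2.43), Fdps (1.18), Msmo1 (1.15), Igf2 (1.51), C3 (6.36), Cfi (2.23), Il6 (1.44), Dlgap1 (4.32) and Fosl1 (1.29), with ratios in MFH1NR from -1.05 for Sqle to -4.48 for Il6. Lower in COS1NR and higher in MFH1NR were Spp1 (-1.09), Bmp2 (-1.07), Smad6 (-1.50) and Snai2 (-2.71), with ratios in MFH1NR from 1.25 for Smad6 to 4.52 for Bmp2. Such genes numbered 224 among all genes compared. No group held enough arrays to look for an outlying sample.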

How the results depend on the processing

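No paired analysis was possible because each cell type had 1 array and the result came from no test. Leaving out a replicate was not possible for the same reason, and the planned normexp on the mean signal was not run. Of 199 ratios named at least 2-fold, none reversed under the alternatives run on single genes, and 26 genes came under 2-fold against MSCs under at least 1 of them. Against the nearer array 38 genes did so, among them Ccnd1, Fdft1, Fdps, Idi1 and Msmo1 with spike-in scaling, Hjv and Akr1c12l1 with normexp and Ccl22 with the mean of all probes. Of 21 lists whose median was at least 2-fold from MSCs, 1 changed sign, complement, whose median turned from -1.24 to 0.0334 over genes well above background on all arrays. Another 10 lists, with medians between -0.65 and 0.26, changed sign under at least 1 alternative. Among them, the other developmental factors (-0.49) turned to 0.32 and axon guidance (-0.65) to 0.12 with no filter on dim probes, and lysosome (-0.39) to 0.0078 without scaling. Counts depended on the scaling and the filter. Without scaling, which shifted the median of all genes by 0.41, 3160 genes were higher than in MSCs, and 68.8% of all called genes were higher, against 50.8% before. Median scaling shifted it by 0.17. Spike-in scaling shifted it by -0.27, gave 36.8% higher, and left 278 genes higher and 1161 lower than both. Over genes well above background on all arrays, 1195 were lower than in MSCs and 367 higher than both. At 3-fold, 947 were higher and 1272 lower than in MSCs, and 259 higher and 341 lower than both. The correlation of COS1NR and MSCs across genes (0.823, genes not being independent replicates) was 0.875 over genes well above background on all arrays and 0.903 with no filter on dim probes. Among list counts, TGF-beta and BMP genes higher than both went from 4 to 1 over genes well above background on all arrays and to 2 with normexp, and interleukin genes from 5 to 3 under each of these. With runs of 21 genes, the lowest median was -0.62. Normexp on the median signal left 408 genes higher and 437 lower than both, and Lifr, Pax3, Phospho1 and Ddx3y, all dim, were under 2-fold there. The cause of these changes was not tested.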

Other observations

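Hypoxia and glycolysis genes did not move with Egln3. In COS1NR, 2 of 27 were above MSCs and 9 below, and in MFH1NR 1 was higher and 18 lower. The median log2 ratio of COS1NR to MSCs was 0.0002. Without scaling, 4 were above MSCs and 5 below in COS1NR. Pdk1, which limits the entry of pyruvate into mitochondria, measured 1461 in MSCs and 3824 in COS1NR, 1.99-fold over MSCs, and was not well above background in MFH1NR. Slc2a3, a glucose transporter, measured 221 and 499 in MSCs and MFH1NR and was not well above background in COS1NR. Of 30 ion channel genes, 6 were higher and 14 lower than in MSCs. Among the former were the potassium channel genes Kcnh1, at 102, 1664 and 359 in MSCs, COS1NR and MFH1NR, and Kcnn3, at 488 in COS1NR and 83.1 in MFH1NR and not well above background in MSCs. Of 36 lysosome genes, 1 was higher and 11 lower than in MSCs.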
